A study of Homo sapiens with 10 samples.

Results

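The human heat shock and chaperone genes described here are 49 protein-coding genes of 19974 on chromosomes 1 to 22 and X. They were chosen by name, as the heat shock factors and the genes of the main protein-folding families, and not by any measured value. They comprise 3 heat shock factors (HSF), 4 HSP90 genes, 14 HSP70 genes with the related HSPH1, 8 HSP40 (DnaJ) genes, 8 small heat shock proteins, 8 subunits of the cytosolic chaperonin CCT, the mitochondrial chaperonin pair HSPD1 and HSPE1, and 2 BAG genes. The data come from ATAC-seq, in which the transposase Tn5 cuts DNA that is not covered by nucleosomes, in MDA-MB-231, an established human triple-negative breast cancer cell line. The series has 5 ARID1A knockout libraries and 5 control libraries of that line, and no heat or other stress treatment is named in the labels. The sources used here do not give how the knockout cells were made, whether they are 1 clone, or whether replicates were separate cultures. The values used here are 161934 accessible regions (peaks) in a single list for the whole series, with 0 columns that give a value per library. Knockout and control therefore cannot be told apart in any value below, no level, depth or replicate error can be given, and the knockout label could not be checked against the data.

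Chaperones bind unfolded or partly folded proteins and keep them from aggregating. HSP70 proteins work in cycles of ATP hydrolysis that HSP40 proteins start and that nucleotide exchange factors such as the BAG proteins end, HSP90 proteins finish the folding of kinases and steroid receptors, small heat shock proteins hold unfolded chains without using ATP, and CCT folds actin and tubulin inside a barrel. On heat or other protein damage, heat shock factors form trimers and bind heat shock elements, which are repeats of the unit GAA and its inverse TTC, at the promoters of many of these genes, and in many breast cancers HSF1 is known to be active without heat.

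Most of these genes had an accessible start. A start peak, meaning a peak within 1000 bases of the outermost 5′ end of the gene in RefSeq, was found for 41 of the 48 genes whose strand was known (85.4%), against 13858 of 18722 other protein-coding genes (74%). The start lay inside the peak for 39 of the 48 genes (81.2%), against 64.9% of the other genes. All 4 HSP90 genes, all 8 CCT genes, both mitochondrial chaperonins and both BAG genes had a start peak, as did 12 of 14 HSP70 genes and 7 of 8 HSP40 genes. Small heat shock proteins had a start peak in 4 of 7 genes and heat shock factors in 2 of 3. HSPB2, a small heat shock protein gene of unknown strand, was not counted, though a peak lay within 1000 bases of each of its ends. Within 3000 bases, a peak lay at 6 of 7 small heat shock protein genes and 3 of 3 heat shock factors, against 82.1% of other genes. As a check of the cell line, the mesenchymal and basal genes VIM, CD44, EGFR, CAV1 and AXL each had a start peak, but so did the progesterone receptor gene PGR, and the estrogen receptor gene ESR1 had a peak at another RefSeq start. A start peak is thus no measure of expression, and an absent one says only that this list holds none.

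**Figure D1:**
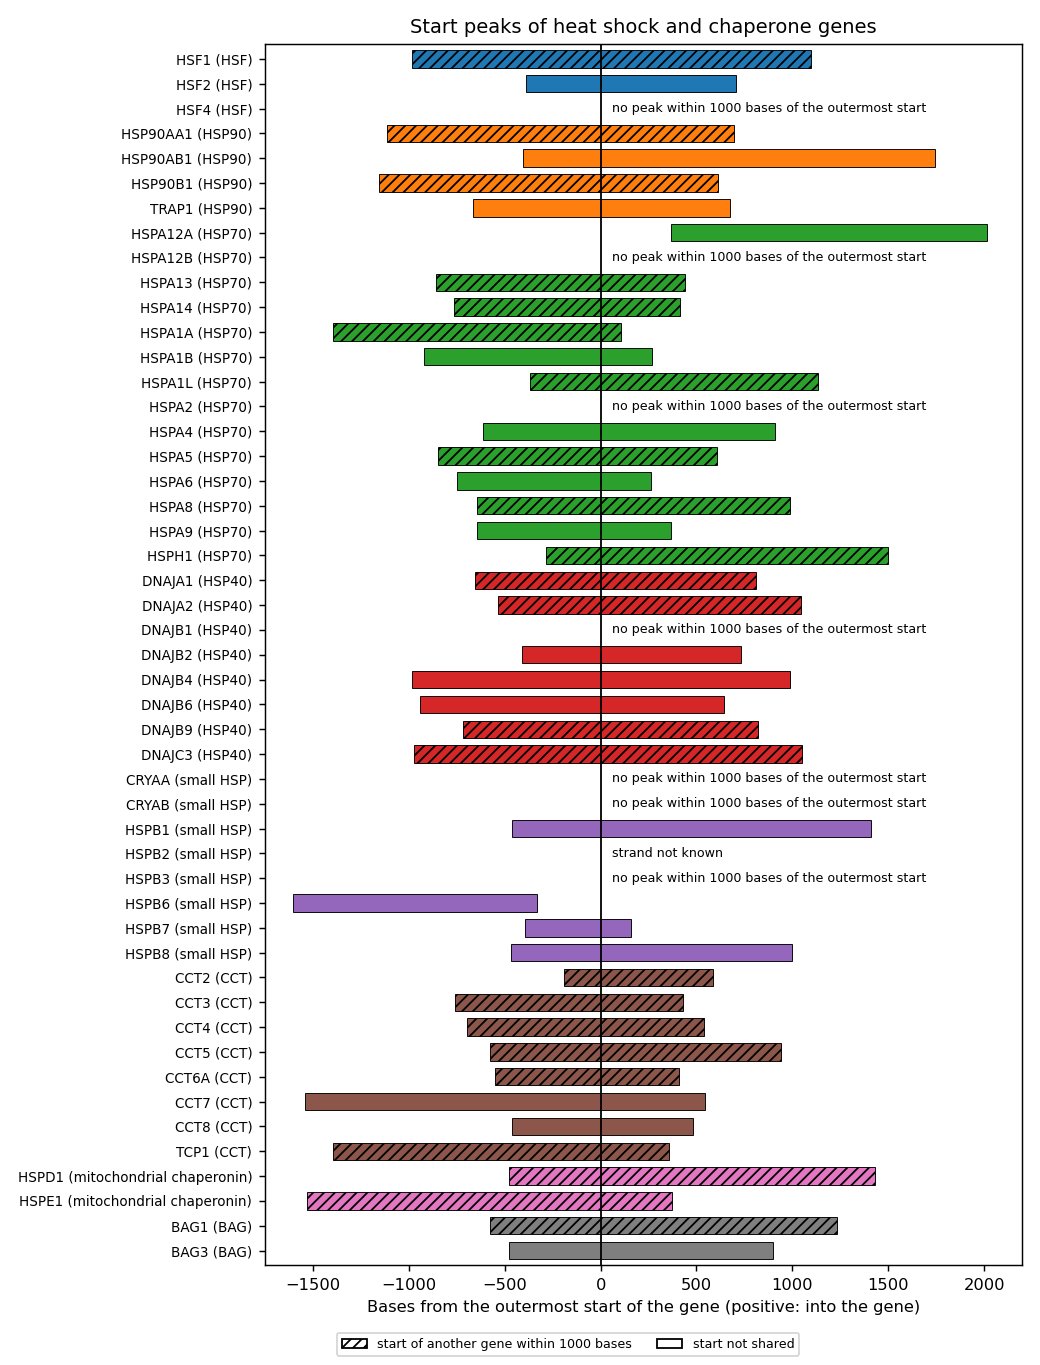
Each bar is the longest peak within 1000 bases of the outermost start of 1 gene, drawn in bases from that start with positive values running into the gene, and coloured by class. Hatched bars mark the 23 genes with another gene's start within 1000 bases. HSP90AB1 has the longest bar (2148 bases) and HSPB7 the shortest (555 bases), and the bars of HSPA1A, HSPA1B and HSPA6 end shortly after the start.

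The promoters of 6 HSP70, HSP90 and HSP40 genes are shown because the letters that heat shock factors bind can be read in them and because all 250 bases of each stretch lay inside a peak. Capitals mark heat shock element pairs, a GAA and a TTC unit with any 2 bases between them (GAANNTTC or TTCNNGAA). Both patterns read the same on the other strand, and pairs that overlap by 1 unit run together in capitals as 3 units (GAANNTTCNNGAA or TTCNNGAANNTTC). The sequences are the 250 bases before a RefSeq start, 5′ to 3′ on the strand of the gene, from RefSeq build GRCh38.p14. HSPA1A (chr6:31815293-31815542, plus strand) and HSPA1B (chr6:31827488-31827737, plus strand) code for the main heat-inducible HSP70 protein, and HSPA6 (chr1:161524290-161524539, plus strand) for an HSP70 made almost only under stress. HSPA8 (chr11:123062137-123062386, minus strand) codes for the constitutive HSP70, HSP90AA1 (chr14:102087045-102087294, minus strand) for the inducible HSP90, and DNAJB1 (chr19:14518398-14518647, minus strand) for the main inducible HSP40.
HSPA1A: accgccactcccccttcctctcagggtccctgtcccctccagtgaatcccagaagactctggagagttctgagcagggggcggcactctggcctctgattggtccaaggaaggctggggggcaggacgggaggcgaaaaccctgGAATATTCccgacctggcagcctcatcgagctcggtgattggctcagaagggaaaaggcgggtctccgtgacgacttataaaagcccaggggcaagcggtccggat
HSPA1B: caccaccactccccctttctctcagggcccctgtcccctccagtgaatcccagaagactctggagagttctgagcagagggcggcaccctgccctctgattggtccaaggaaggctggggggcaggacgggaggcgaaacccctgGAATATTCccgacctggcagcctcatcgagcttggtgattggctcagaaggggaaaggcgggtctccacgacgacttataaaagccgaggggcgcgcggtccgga
HSPA6: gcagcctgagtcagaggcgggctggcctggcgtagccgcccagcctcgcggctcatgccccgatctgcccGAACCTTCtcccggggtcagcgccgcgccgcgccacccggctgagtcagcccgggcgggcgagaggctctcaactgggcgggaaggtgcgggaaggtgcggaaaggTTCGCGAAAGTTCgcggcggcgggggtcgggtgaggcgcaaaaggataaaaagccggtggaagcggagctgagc
HSPA8: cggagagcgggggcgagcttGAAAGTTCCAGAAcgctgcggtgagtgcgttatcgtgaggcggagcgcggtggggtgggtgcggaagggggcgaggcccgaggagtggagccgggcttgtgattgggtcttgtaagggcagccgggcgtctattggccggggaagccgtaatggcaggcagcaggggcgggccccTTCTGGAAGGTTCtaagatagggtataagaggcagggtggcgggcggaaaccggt
HSP90AA1: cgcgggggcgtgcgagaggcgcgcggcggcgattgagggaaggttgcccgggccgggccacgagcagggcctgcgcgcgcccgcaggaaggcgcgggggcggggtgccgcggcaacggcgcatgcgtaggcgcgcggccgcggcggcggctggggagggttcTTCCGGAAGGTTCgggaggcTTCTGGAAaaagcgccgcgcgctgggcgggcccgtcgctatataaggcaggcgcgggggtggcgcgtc
DNAJB1: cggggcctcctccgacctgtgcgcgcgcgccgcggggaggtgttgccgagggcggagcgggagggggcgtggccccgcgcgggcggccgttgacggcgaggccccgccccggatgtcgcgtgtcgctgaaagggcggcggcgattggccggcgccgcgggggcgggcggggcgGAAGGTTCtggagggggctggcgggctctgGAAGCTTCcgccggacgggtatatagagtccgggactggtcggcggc

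The HSPA1A and HSPA1B stretches each held 1 pair, GAATATTC, which lay 106 to 99 bases before the start of HSPA1A and 105 to 98 before that of HSPA1B. Around their starts the promoters of HSPA1A and HSPA1B had the same base at 277 of 299 aligned positions (92.6%), with a longest shared run of 49 bases. Reads from such near-identical stretches may map to either copy, and the placement used by the authors is not given here. HSPA1A and HSPA6, by contrast, matched at 32% of aligned positions. HSPA6 held 3 units at 74 to 62 bases before its start and a further pair at 180 to 173. HSPA8 held 3 units at 2 places, 230 to 218 and 55 to 43 bases before the start shown. HSP90AA1 held 3 units at 88 to 76 bases and another pair at 68 to 61. DNAJB1 held 2 separate pairs, at 77 to 70 and 47 to 40 bases.

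Over all RefSeq starts in the promoter table (250 bases before to 50 after each start), 20 of 43 chaperone genes held at least 1 heat shock element pair (46.5%), against 2331 of 15770 other protein-coding genes (14.8%). A run of 3 units was found in 7 of 43 genes (16.3%), against 78 of 15770 other genes (0.495%). These 7 were HSP90AA1, HSP90AB1, HSPA6, HSPA8, DNAJA1, DNAJB6 and HSPD1. By class, a pair was found in 2 of 4 HSP90 genes, 6 of 12 HSP70, 4 of 8 HSP40, 4 of 6 small heat shock protein genes, 3 of 7 CCT genes and 1 of 2 mitochondrial chaperonins, and in 0 of 2 heat shock factors and 0 of 2 BAG genes. A match to these letters is a description of the sequence and not evidence of binding. At the start nearest the outermost boundary alone a pair was found in 13 genes (30.2%), against 11.4% of other genes, and 3 units in 4 genes (9.3%), against 0.349%. The pairs of HSPA1A and HSPA1L are the same 8 bases between the 2 genes, read on opposite strands, so a single element counts for both.

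**Figure D2:**
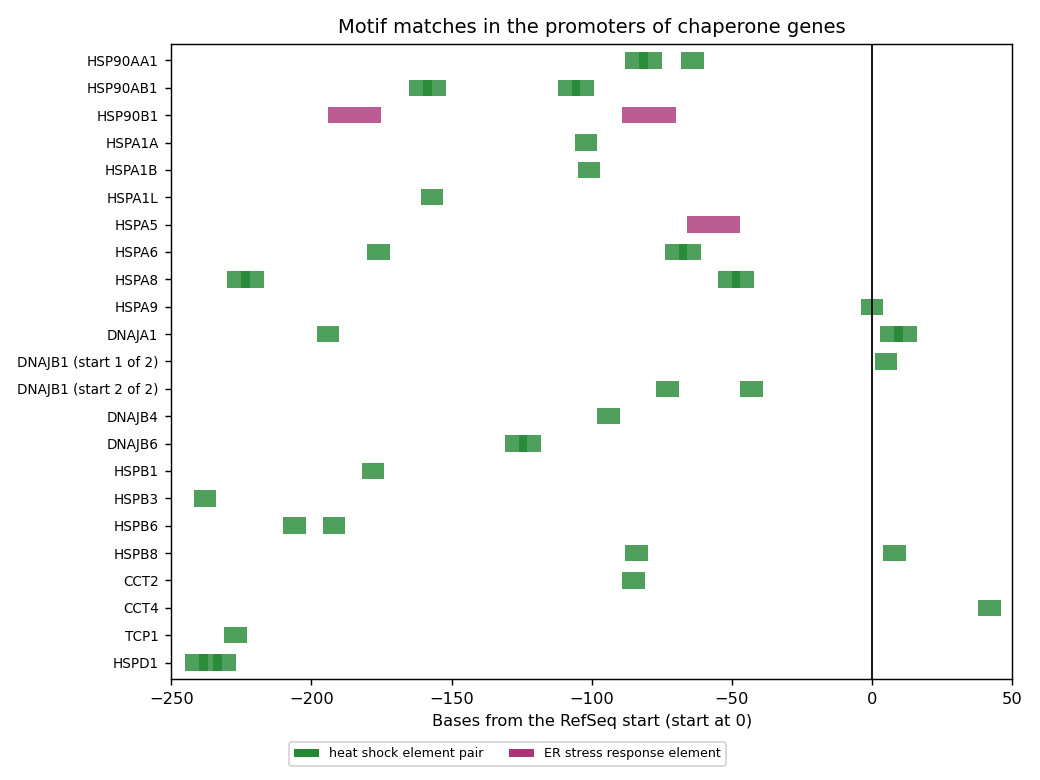
Each row is a RefSeq start of a chaperone gene whose promoter holds a heat shock element pair (green) or an endoplasmic reticulum stress element (purple), with positions in bases from the start, which is at 0. Overlapping green boxes are runs of 3 units, as in HSPA6 at 74 to 62 bases before the start. HSPD1 holds 2 matches of 3 units that overlap each other in a single stretch, between 245 and 228 bases before its inner start.

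Of the 56 starts of these genes in the promoter table, 50 lay within 1000 bases of a peak. Of the 21 starts with a pair, 20 did, and the exception was HSPB3. All 7 starts with 3 units were near a peak. At HSP90AB1 the 3 units at 165 to 153 and 112 to 100 bases before the start at 44247943 fell within a peak that ended at 44247939, 4 bases short of that start. At HSPB6 the pairs lay within 210 bases of the start, while the nearest peak began 330 bases before it, so they were outside the peak.

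A different motif was found at 2 genes of the endoplasmic reticulum. HSPA5 (BiP), the HSP70 of the endoplasmic reticulum, and HSP90B1 (GRP94), its HSP90, are targets of the unfolded protein response, which acts through the endoplasmic reticulum stress element. Their promoters are shown with that element in capitals (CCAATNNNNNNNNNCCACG, or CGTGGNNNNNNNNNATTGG on the other strand). HSPA5 (chr9:125241344-125241593, minus strand) held 1 match at 66 to 48 bases before its start, and HSP90B1 (chr12:103930160-103930409, plus strand) held 2, at 194 to 176 and 89 to 71, one in each orientation.
HSPA5: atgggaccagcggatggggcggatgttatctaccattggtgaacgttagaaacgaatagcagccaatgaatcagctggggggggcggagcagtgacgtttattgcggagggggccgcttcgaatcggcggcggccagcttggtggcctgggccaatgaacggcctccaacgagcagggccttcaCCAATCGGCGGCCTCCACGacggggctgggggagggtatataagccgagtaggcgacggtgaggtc
HSP90B1: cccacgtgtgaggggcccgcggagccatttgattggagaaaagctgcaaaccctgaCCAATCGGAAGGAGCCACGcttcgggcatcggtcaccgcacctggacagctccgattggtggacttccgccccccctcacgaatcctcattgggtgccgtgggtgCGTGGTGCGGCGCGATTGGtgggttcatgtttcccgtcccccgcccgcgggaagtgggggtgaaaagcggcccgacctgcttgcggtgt
HSPA5 and HSP90B1 were 2 of the 43 genes searched (4.65%), against 19 of 15770 other genes (0.12%), and neither held a heat shock element pair. The other endoplasmic reticulum genes searched, HSPA13, DNAJB9 and DNAJC3, held no match to it. All bases shown lay inside the start peaks, which were 1456 bases long at HSPA5 and 1767 bases at HSP90B1. The element includes the CCAAT box, which on its own was found in 17 of 43 chaperone genes (39.5%) and 42.1% of other genes, shares that were close to each other. The TATA box, searched as TATAAA on either strand, was found in 8 of 43 chaperone genes (18.6%), against 12.4% of other genes, and lay 30 to 25 bases before the start of HSPA1A and 29 to 24 before that of HSPA1B. The AP-1 site TGANTCA was found in 4 of 43 (9.3%), close to the 8.04% of other genes.

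Start peaks of chaperone genes had a median length of 1503 bases, with quartiles of 1191 and 1785, against 1256 bases with quartiles of 958 and 1575 for other protein-coding genes. Of the 41 start peaks, 37 were longer than 1000 bases (90.2%), against 72% for other genes. The class medians were 1788 bases for HSP90, 1590 for HSF, 1580 for HSP40, 1479.5 for HSP70, 1369 for small heat shock proteins and 1212 for CCT. The 2 BAG genes had a median of 1593.5 bases, and HSPD1 and HSPE1 shared a peak of 1908 bases. The ranges of the classes with more than 2 start peaks overlapped one another, and peak length has no replicate error here.

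**Figure D3:**
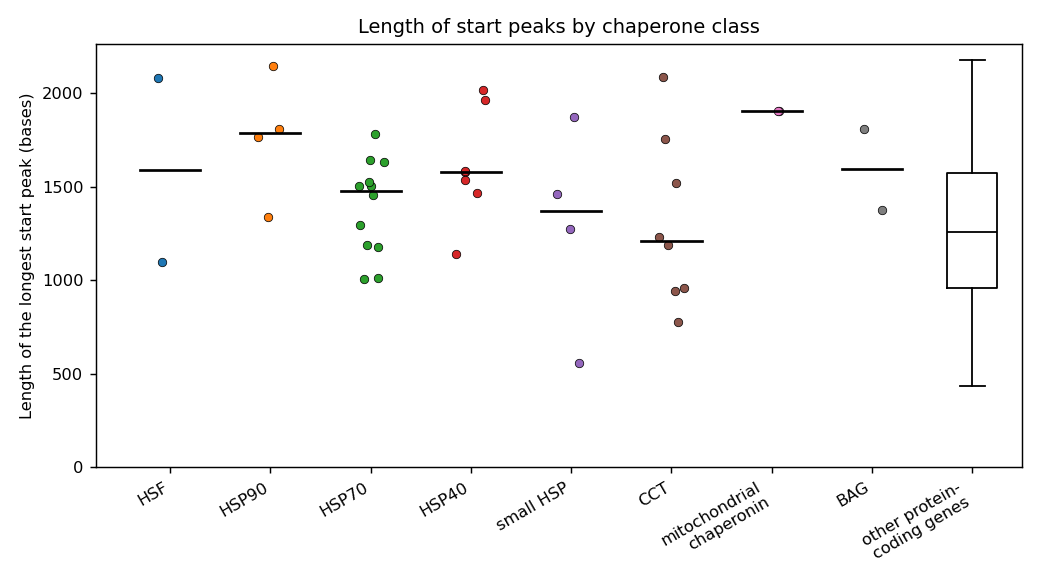
Points are the lengths in bases of the longest start peak of each chaperone gene, by class, and thick lines are class medians. The box gives the quartiles and median (1256 bases) of other protein-coding genes with a start peak, and its whiskers the 5th and 95th percentiles. The 4 HSP90 genes lie between 1338 and 2148 bases, and 3 of the 8 CCT genes lie under 1000 bases.

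Among the heat shock factors, HSF1, the main activator of the heat shock response, had a start peak of 2084 bases that reached 1097 bases into the gene, longer than 93.4% of the start peaks of all protein-coding genes. HSF2, which works with HSF1 and in development, had a start peak of 1096 bases (chr6:122399160-122400255). HSF4, a factor of the eye lens, had no start peak. Its nearest peak, of 2225 bases, ended 2438 bases before the outermost start, and none lay at its other RefSeq start. No heat shock element pair was found in the promoters of HSF2 and HSF4.

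The HSP90 genes had the highest class median apart from the mitochondrial chaperonin pair. HSP90AB1, the constitutive cytosolic HSP90, had the longest start peak of all chaperone genes, 2148 bases (chr6:44245792-44247939), longer than 94.5% of the start peaks of all protein-coding genes. HSP90AA1 had separate peaks at its outermost start (1809 bases, chr14:102139055-102140863) and at its inner start at 102087044 (1313 bases, chr14:102086519-102087831). The 3-unit heat shock element was found at the inner start and no pair at the outermost one. TRAP1, the mitochondrial HSP90, had the shortest start peak of the class at 1338 bases (chr16:3716850-3718187).

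Among HSP70 genes, start peaks ran between 1009 bases at HSPA9, the mitochondrial HSP70, and 1785 bases at HSPH1, a large HSP70 relative that exchanges nucleotide on HSP70. HSPA4, another such relative, had 1525 bases, HSPA8 had 1635 and HSPA13, an HSP70 of the endoplasmic reticulum, had 1296. The peaks of HSPA1A, HSPA1B and HSPA6 reached little into the gene. Whether reads can be placed uniquely past these starts was not tested, and HSPA1A and HSPA1B are near-identical around theirs. The peak of HSPA1A ended 107 bases after the start, that of HSPA6 264 bases after it and that of HSPA1B 265 bases after it, against a median of 694 bases for chaperone genes and 677 for other genes. Among all protein-coding genes whose start lay inside a peak, 2.2% had a peak that reached less far than that of HSPA1A, 8.7% than that of HSPA6 and 8.8% than that of HSPA1B. A short reach was not seen at every stress-inducible gene, nor at these genes alone, since it was 1499 bases at HSPH1, 1410 at HSPB1 and 694 at the outermost start of HSP90AA1, and 158 at the heart gene HSPB7. HSPA1B had a start peak of 1188 bases (chr6:31826816-31828003) and HSPA6 one of 1012 bases (chr1:161523793-161524804). HSPA7, an HSP70 pseudogene on the same chromosome as HSPA6, had 0 peaks within 3000 bases. Unique read placement at HSPA7 was not tested either.

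HSPA1A and HSPA1L, an HSP70 known from testis, lie head to head with their starts 260 bases apart, and a single peak of 1503 bases covered both (chr6:31814148-31815650). It extended 1135 bases into HSPA1L and 107 bases into HSPA1A. The list gives this peak to HSPA1L, and no identifier of the list could be paired with HSPA1A. The start of HSPA1B lies 12195 bases from that of HSPA1A. HSPA2, also known from testis, had no peak at its outermost start, the nearest being 3300 bases away, but a peak of 1656 bases covered its other RefSeq start at 64540741 (chr14:64539205-64540860). HSPA12A, a distant HSP70 relative, had a peak of 1646 bases that began 369 bases inside the gene and so did not cover the outermost start, and it had another of 1648 bases at an inner start (chr10:116741924-116743571). HSPA12B had no start peak, and its nearest peak, of 412 bases, lay 1399 bases into the gene. HSPA14, an HSP70 bound to ribosomes, was the only gene with 2 start peaks, the longer of 1179 bases.

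HSP40 start peaks ran between 1142 bases at DNAJB2, a neuronal DnaJ protein that sends clients to the proteasome, and 2020 bases at DNAJC3, a co-chaperone of the endoplasmic reticulum. DNAJB4, a cytosolic DnaJ protein, had 1967 bases, DNAJB6, which keeps polyglutamine chains from aggregating, 1583, and DNAJA2, a partner of HSPA8, 1580. DNAJB9, an endoplasmic reticulum DnaJ protein, had 1539 bases, and DNAJA1, another partner of HSPA8, 1467. DNAJB1 had no peak within 1000 bases of its outermost start at 14560391, where the nearest was 3305 bases away. A peak of 1414 bases covered the start whose promoter is printed above and a further start at 14517937 (chr19:14517590-14519003), and another of 1039 bases lay at the start at 14529271.

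DNAJB6, a long gene of 80436 bases, had the most peaks of the chaperone genes. It had 24 rows in the list, against a median of 2 for the chaperone genes, and 18 peaks lay in its gene body. Regions away from its start were longer than its start peak, namely an intergenic peak of 1870 bases that lay 26253 bases before the start (chr7:157308882-157310751) and an intron peak of 1836 bases that lay 59491 bases into the gene (chr7:157396495-157398330). HSPA12A had 17 peaks in its body, DNAJC3 had 14 and DNAJB1 had 11. The median was 1 for chaperone genes and 2 for other protein-coding genes, and the chaperone genes were shorter, with a median length of 15177 bases against 24226.

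Start peaks of small heat shock protein genes ran between 555 and 1873 bases. HSPB1 (HSP27), the widely expressed member, had a start peak of 1873 bases (chr7:76302211-76304083) that covered nearly the whole gene, and HSPB8, which works with BAG3 in autophagy, had one of 1463 bases. HSPB6, a muscle protein, had a peak of 1275 bases that began 330 bases before the start. HSPB7, a heart protein, had the shortest start peak of all, 555 bases, and no peak at its other RefSeq start at 16018043. The lens crystallin gene CRYAA had its nearest peak 18483 bases from the start, and HSPB3, a muscle protein, had its nearest, of 320 bases, at 1460 bases past the start. The crystallin gene CRYAB had no peak within 1000 bases of its outermost start, but peaks of 534, 353 and 428 bases lay between 111911661 and 111913976 on chromosome 11 at starts that the list gives it. The last 2 of these lie within HSPB2 (chr11:111912734-111914093), whose strand was not known, so it was left out of the counts. A peak lay within 1000 bases of each end of HSPB2, so it had a start peak whichever its strand. Another gene's start lay within 1000 bases in 0 of 7 small heat shock protein genes. This count leaves out HSPB2 and takes CRYAB only at its outermost start, so it does not cover the listed CRYAB starts near HSPB2.

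All 8 CCT subunit genes had a start peak that covered the start. The longest was 2087 bases at CCT7 (chr2:73232764-73234850) and the shortest 775 bases at CCT2 (chr12:69585269-69586043). CCT8 had 941 bases and CCT6A 958, while TCP1, which codes for subunit alpha, had 1755, CCT5 1521, CCT4 1233 and CCT3 1191. Of the 8 genes, 6 lay within 1000 bases of another gene's start. The BAG genes, whose proteins release nucleotide from HSP70, had start peaks of 1810 bases at BAG1 (chr9:33263476-33265285) and 1377 bases at BAG3 (chr10:119650902-119652278), a stress-induced member that holds 7 peaks in its body.

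Shared starts were common. Another gene's start lay within 1000 bases of the start of 23 of 48 chaperone genes (47.9%), against 4918 of 18722 other protein-coding genes (26.3%). Counting only protein-coding neighbours, 15 genes shared a start (31.2%), against 15.3% of others. At least 1 neighbour lay on the opposite strand for 22 of the 23 genes, and for other genes with a shared start in 92.6%. The nearest such neighbour was 15 times a protein-coding gene, 6 times a long non-coding RNA and 1 time a pseudogene. CCT2 was counted as the exception, with 2 overlapping microRNA genes, MIR3913-1 and MIR3913-2, the nearer 736 bases from its start. Neighbours outside the promoter table took their strand from the listed transcript that overlapped them best. The strands of genes that overlap each other, such as these 2, may therefore be wrong, and whether CCT2 is a true exception was not settled. HSPA14 and HSPE1 also had a neighbour with the same start on their own strand, MSANTD7 for HSPA14 and HSPE1-MOB4 for HSPE1. By class, shared starts were found in 2 of 4 HSP90 genes, 7 of 14 HSP70 genes, 4 of 8 HSP40 genes, 6 of 8 CCT genes, 1 of 3 heat shock factors, 1 of 2 BAG genes and both mitochondrial chaperonins.

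**Figure D4:**
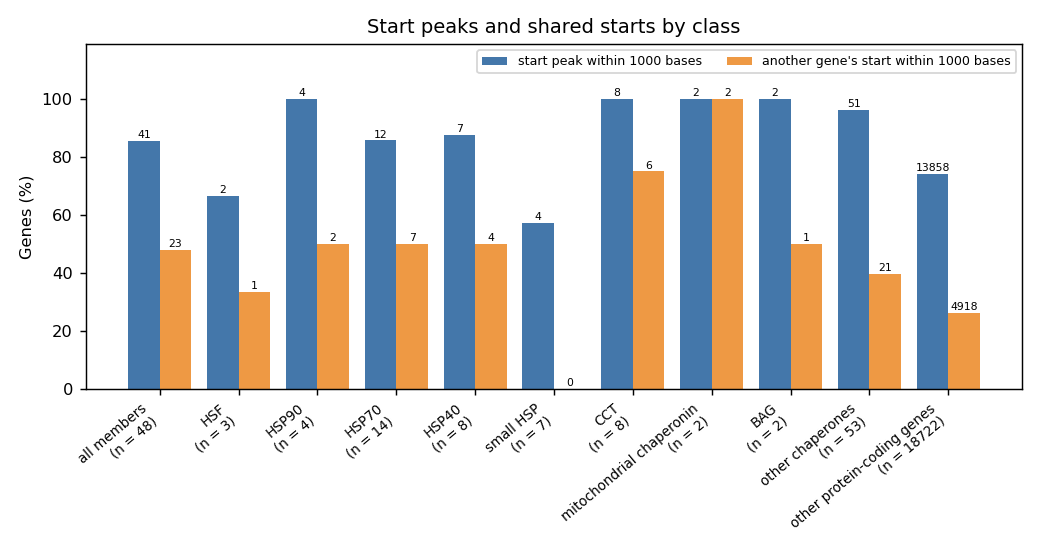
Bars give the percentage of genes in each class with a start peak (blue) and with another gene's start within 1000 bases (orange), and the number on each bar is the count of genes. The counts are 41 and 23 of 48 for all chaperone genes, and 13858 and 4918 of 18722 for other protein-coding genes.

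In 2 of the pairs both partners were chaperone genes, HSPA1A with HSPA1L and HSPD1 with HSPE1. HSPD1 (HSP60) and HSPE1 (HSP10), which form the barrel and its lid, start 105 bases apart on opposite strands, and a single peak of 1908 bases covered both (chr2:197498846-197500753). The overlapping heat shock elements before the inner HSPD1 start at 197499840 lay inside that peak. Other protein-coding pairs were CCT5 with ATPSCKMT at 33 bases between starts, CCT4 with COMMD1 at 54, DNAJB9 with THAP5 at 106, HSP90AA1 with WDR20 at 148, DNAJA1 with APTX at 153, HSF1 with BOP1 at 166, TCP1 with MRPL18 at 210, CCT3 with TSACC at 234, CCT6A with PSPH at 321 and BAG1 with CHMP5 at 341. HSPA14 paired with CDNF. Distances ran from the outermost start of the chaperone gene to the nearest RefSeq start of the neighbour. For COMMD1, WDR20 and TSACC that was an inner start and not the outermost one. The long non-coding partners were DNAJA2-DT at 98 bases from DNAJA2, LOC124902775 at 200 from HSPA8, DNAJC3-DT at 214 from DNAJC3, LOC105370148 at 272 from HSPH1, HSPA5-DT at 313 from HSPA5 and LOC105369304 at 380 from HSPA13, and the pseudogene was TTC41P at 199 from HSP90B1. In all 23 cases a peak lay within 1000 bases of both starts. Of other protein-coding genes, 26.3% shared a start and 24% had a peak near both starts, so most of their shared starts had one too. The start peaks of these 23 genes had a median of 1539 bases, against 1357.5 for the 18 chaperone genes with a start peak and no shared start. The same medians for other genes were 1369 bases (4497 genes) and 1186 bases (9361 genes).

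Each row of the list names a single gene. Of the 41 start peaks, 31 were listed under the gene's own identifier and 10 under another, and 7 of these 10 genes had a shared start. The peaks of BAG1, CCT3, CCT5, DNAJC3, HSPA14, HSPA1A and HSPE1 were listed under the neighbours CHMP5, TSACC, ATPSCKMT, DNAJC3-DT, CDNF, HSPA1L and HSPD1, that of CCT7 under PRADC1, whose listed start is 1080 bases away, that of HSPA12A under ENO4, and that of DNAJB4 under an identifier with no match in the RefSeq table. In all, the 44 genes paired with an identifier had 158 rows. Of these, 68 were annotated as promoter, 38 as distal intergenic, 33 as intron, 7 as exon, 7 as downstream and 5 as 3′ UTR. Only 31 of the 158 rows lay within 1000 bases of the gene's outermost start, so many promoter rows lay away from it. The shares of these classes over the whole list are not given here, so no difference from it can be read. HSPA1A, HSPE1, DNAJC3, HSPB2 and HSF4 could not be paired with an identifier, so no rows could be counted for them. HSPA1A, HSPE1 and DNAJC3 each had a start peak, and peaks lay in HSPB2.

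The 7 chaperone genes without a peak at the outermost start were HSF4, HSPA12B, HSPA2, DNAJB1, CRYAA, CRYAB and HSPB3. For HSPA2, DNAJB1 and CRYAB a peak lay at another known start, while for HSF4, HSPA12B, CRYAA and HSPB3 none did. The start peaks nearest to the limit were those of HSPB6 at 330 bases and HSPA12A at 369, and outside it the nearest were HSPA12B at 1399 and HSPB3 at 1460 bases. Of the last 4, the promoter table holds HSF4, CRYAA and HSPB3. GC content was 48.3% at HSPB3, with a ratio of observed to expected CpG of 0.288, 65.7% at CRYAA, with a ratio of 0.403, and 71.7% at HSF4, with a ratio of 1.103. Chaperone genes with a start peak had a median GC of 63.5% and other genes with one 65%. Their median CpG ratios were 0.839 and 0.823. Without a start peak, the medians were 63.7% and 0.712 for 5 chaperone genes, and 53.3% and 0.319 for other genes. Composition was taken at the promoter table start nearest the outermost start, and the start peak was judged at the outermost start itself. HSPA2 and DNAJB1 are among the 5 and had a peak at the start measured, so these medians do not describe promoters without a peak.

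Folding helpers outside the 49 genes were accessible at their starts in nearly every case. Of 53 such chaperone genes with a known strand, 51 had a start peak (96.2%) and 21 a shared start (39.6%), and the median length was 1328 bases. The 13 HSP90 co-chaperones all had a start peak, and that of PTGES3 (p23) was the longest of the 53 at 2049 bases. The 6 prefoldin genes, which hand actin and tubulin to CCT, also all had one, with a median of 952 bases, and the shortest was 255 bases at VBP1, 644 bases from its start. Of 8 endoplasmic reticulum folding genes only PDIA6, a disulfide isomerase, lacked a peak at its outermost start, and it had one at another RefSeq start. Of 12 further DnaJ genes only DNAJA4 lacked one.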

How the data were processed

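ATAC-seq was done on 10 libraries, 5 ARID1A knockout and 5 control. Per the submitters' processing notes, Bowtie2 2.3.5.1 and MACS2 2.2.6 were used with build hg38. The peak threshold, the merging of libraries and any Tn5 shift, which set the number and edges of peaks, are not given in any source here. The authors deposited 1 list of 161934 peaks with 17 columns. Per the file headers these hold each peak's position, length, annotation class and nearest transcript.

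The RefSeq gene table used (GRCh38.p14) pairs no symbol with the list's identifiers, so 44 of the 49 genes were paired with one by strand and position, requiring that they overlap by 0.3 of their joint span or share a boundary to within 500 bases, or that listed transcripts lie inside the gene. Strand came from the RefSeq promoter table for 43 of the genes and otherwise from the paired transcript, and for HSPB2 it stayed unknown. Of the other protein-coding genes, 2952 took their strand from listed transcripts, which are listed only near a peak, and genes of unknown strand (1204 in all) were left out. Of several start peaks the longest gave the length. Shared starts were counted for RefSeq genes of any type, at the outermost or any other RefSeq start of the neighbour. The peak lookup was tested on 1000 simulated intervals against brute force. Motifs were searched on both strands in the 250 bases before to 50 after each RefSeq start, for 43 of the 49 genes. HSF1, HSPA12B, HSPA14, CCT6A, CRYAB and HSPB2 were not searched.

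The genes, lists, classes and motifs were chosen with earlier results of these data known, and no test was made. Named with values are genes with the longest and shortest start peaks of a class, without a start peak, with a shared start or near the limit, and further genes chosen after seeing values. The software was Python 3.11.15, numpy 2.4.6, pandas 2.3.3 and matplotlib 3.10.9.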

Additional observations from a re-analysis of the deposited data

How the results depend on the processing

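No paired analysis was possible because no library has a value of its own, and the planned fit of knockout against control, with and without a replicate block and leaving out replicates, was not run. The count of 41 chaperone genes with a start peak stayed between 31 and 45 under 7 alternatives. It was 45 within 3000 bases (82.1% of other genes), 39 with the start inside the peak, 41 with peaks of at least the list's median length of 539 bases (68.5%), 44 at any listed transcript start, which favours genes with peaks, and 31 under the gene's own identifier. The median length was 1521 bases with all peaks near the start summed, against 1288 for other genes, and 1503 under 3 other choices. The count of 23 shared starts was 22 within 500 bases (22.5% of other genes) and 23 with a single peak near both (24%). It was 20 of 43 with strand from the promoter table only (28.7% of other genes) and 15 with protein-coding neighbours only (15.3%). Heat shock element pairs fell to 13 genes and 3-unit elements to 4 (0.349% of other genes) at the start nearest the outermost boundary, since fewer starts were searched. Of 48 class counts recomputed, 44 stayed within 1.5 times. Unknown depth limits every absent peak, and classes of 2 to 14 genes give coarse shares. Alternatives on the promoter table, own identifiers and motif starts were chosen after seeing the data.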
